A study of Mus musculus with 3 samples.

Results

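The matrilin genes Matn1 (ENSMUSG00000040533), Matn2 (ENSMUSG00000022324), Matn3 (ENSMUSG00000020583) and Matn4 (ENSMUSG00000016995) were followed in single cells of the mouse mandibular condyle, the jaw side of the temporomandibular joint. They were taken by gene symbol and are 4 of the 32285 genes in the count tables. All mice were wild type and C57BL6, with no allele or treatment that differed between groups. Condyles came from embryos of day 16.5 (E16.5), when the upper joint cavity forms, from newborns (P0), when the joint is first used, and from adults of 13 weeks (13w). Tissue of 7 to 20 mice was pooled per age and freed by collagenase A and dispase. Viable cells were sorted by Calcein staining without DAPI, and every pool gave 1 library by a 3′ droplet chemistry that counts unique molecular identifiers (UMIs). With 1 library per stage there is no replicate and no test, so every difference below compares libraries or cells within a library, and each interval is a 95% interval that covers counting error only.

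Matrilins are secreted adaptor proteins of the extracellular matrix, built from von Willebrand factor A domains, EGF-like repeats and a coiled coil that joins subunits into oligomers. They bind collagen fibrils, proteoglycans, COMP and each other, and so form filaments around chondrocytes. Matrilin-1 and matrilin-3 are known mainly from cartilage and can join in mixed oligomers, whereas matrilin-2 and matrilin-4 are found in many connective tissues. In humans, variants of MATN3 cause a form of multiple epiphyseal dysplasia.

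After filtering, the E16.5, P0 and 13w libraries kept 4562, 3999 and 8028 cells and 100546288, 94002214 and 113130140 UMIs, with medians per cell of 17401.5, 17954 and 11010. Cells with at least 3 Col9a1 UMIs per 10000 (type IX collagen, a cartilage gene) were divided at 10 Col10a1 UMIs per 10000 (type X collagen, of hypertrophic cartilage). These are ranges of a per-cell value, not cell types. The Col10a1-high class held 249, 557 and 187 cells (in order of age), the Col10a1-low class 765, 1189 and 1434 cells, and the Col9a1-low class 3548, 2253 and 6407 cells. Cells with 1 to below 3 Col9a1 UMIs per 10000 numbered 502, 464 and 849, and cells just inside the limit, with 3 to below 6, numbered 239, 134 and 427. Around the Col10a1 limit, 89, 234 and 81 cells had 3 to below 10 per 10000, and 99, 155 and 67 had 10 to below 30. Both Col9a1-high classes together made up 22.2% of E16.5 cells, 43.7% of P0 cells and 20.2% of 13w cells, so most cells of a tissue labelled condylar cartilage did not pass the cartilage limit at any stage. Median depth was higher in the Col10a1-high class (46514, 35993 and 36183 UMIs) and the Col10a1-low class (38424, 36590 and 22413) than in the Col9a1-low class (14937, 11771 and 9547).

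Most cartilage markers followed the class names, with mixed features at all 3 stages. The median cell of the Col10a1-high, Col10a1-low and Col9a1-low classes had 199, 38.9 and 0.717 Col2a1 UMIs per 10000 at E16.5, 267, 125 and 2.16 at P0, and 443, 345 and 3.31 at 13w. The Col10a1-high class also had medians of 41.4, 21.1 and 826 UMIs per 10000 of Ibsp, a mineralised matrix protein, at E16.5, P0 and 13w. Its medians for Col1a1 were 5.83, 19.2 and 61.5, whereas the adult median for the osteocalcin gene Bglap was 0.413. The Col9a1-low class was not free of hypertrophic genes, with a Col10a1 UMI in 18.9%, 50.7% and 19.7% of its cells at E16.5, P0 and 13w. A UMI of the collagenase gene Mmp13 was in 0.930%, 6.61% and 56.8% of them, against 4.02%, 21.7% and 47.6% of Col10a1-high cells. Few barcodes were shared between libraries: 14 kept cells between P0 and E16.5, 8 between 13w and P0 and 11 between 13w and E16.5.

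Upstream sequences were sought for all 4 members and are printed where a start was given. Matn1, Matn3 and Matn4, the members printed, were all higher in the Col9a1-high than in the Col9a1-low classes before and at birth. RefSeq's table for build GRCm38.p6, an earlier build than the GRCm39 of the counts, gave starts for 3 of the 4 genes and none for Matn2. Shown are the 250 bases before the start, on the gene's strand: chr4:130944135-130944384 (plus) for Matn1, chr12:8947679-8947928 (plus) for Matn3 and chr2:164405161-164405410 (minus) for the outer of 2 Matn4 starts. Neither the SOX core letters AACAAT nor the TATA letters TATAAA were found on either strand of the 300-base windows, which add 50 bases after the start, so no letter is in capitals. Of all 32851 windows in the table, 10.7% held AACAAT and 13.6% held TATAAA. That these letters are missing says nothing of which factors bind there.
Matn1: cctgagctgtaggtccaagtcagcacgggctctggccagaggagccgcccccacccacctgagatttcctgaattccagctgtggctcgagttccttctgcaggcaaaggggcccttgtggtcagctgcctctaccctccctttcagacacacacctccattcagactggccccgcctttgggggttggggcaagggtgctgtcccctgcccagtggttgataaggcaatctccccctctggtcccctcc
Matn3: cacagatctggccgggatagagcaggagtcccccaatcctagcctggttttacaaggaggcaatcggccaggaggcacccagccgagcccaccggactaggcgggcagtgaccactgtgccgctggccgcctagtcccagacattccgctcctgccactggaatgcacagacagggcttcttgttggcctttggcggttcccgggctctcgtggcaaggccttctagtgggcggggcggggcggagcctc
Matn4: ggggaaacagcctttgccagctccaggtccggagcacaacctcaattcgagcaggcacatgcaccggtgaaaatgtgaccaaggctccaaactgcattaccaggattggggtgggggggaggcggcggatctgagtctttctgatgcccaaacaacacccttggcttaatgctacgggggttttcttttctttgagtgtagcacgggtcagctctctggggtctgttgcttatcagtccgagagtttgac

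Matn1 was abundant before and at birth and nearly gone in the adult joint. Levels are given as CPM, the UMIs of a gene scaled to a total of 1000000 per group. In the Col10a1-high class Matn1 stood at 535 CPM at E16.5, at 544 CPM at P0 and at 14.5 CPM at 13w. In the Col10a1-low class the levels were 79.3, 101 and 1.07 CPM, and in the Col9a1-low class 1.05, 3.25 and 0.209 CPM. The Col10a1-high class was thus the highest at every stage, and the whole adult library held 150 Matn1 UMIs, of which 98 were in its 187 Col10a1-high cells. At 13w Matn1 was 37.5-fold lower than at P0 in the Col10a1-high class (interval 30.8 to 46.2) and 94.2-fold lower in the Col10a1-low class (68.2 to 134). Between P0 and E16.5 the ratio was 1.02 in the Col10a1-high class (0.986 to 1.05) and 1.27 in the Col10a1-low class (1.21 to 1.34). In the Col9a1-low class, below 10 CPM at both stages, the ratio was 3.11 (2.25 to 4.31). Over all kept cells Matn1 was 2.03-fold higher at P0 (1.98 to 2.09), and with the classes weighted equally that log2 ratio was 0.08 in place of 1.03. In order of level, the Col10a1-high classes of P0 and E16.5 had overlapping intervals, as did the adult Col10a1-low and the E16.5 Col9a1-low classes, and the adult Col9a1-low class was the lowest.

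Within E16.5 and P0 the Matn1 ratio of the Col10a1-high to the Col9a1-low class was the steepest of the 4 genes. At 13w the intervals of Matn1 and Matn3 overlapped. Against the Col9a1-low class, Matn1 in the Col10a1-high class was 511-fold higher at E16.5 (401 to 664), 167-fold at P0 (138 to 206) and 69.5-fold at 13w (40.2 to 129). Against the Col10a1-low class it was 6.75-fold higher at E16.5, 5.39-fold at P0 and 13.5-fold at 13w. The low end of these ratios lies near the level of cells that should lack the gene: the Col9a1-low class at E16.5 had 1.05 CPM, against 2.06 CPM (5 UMIs, interval 0.670 to 4.82) in E16.5 cells with at least 3 blood marker genes. Matn1 in the Col9a1-low class at E16.5 was thus not above background. At 13w, 96 Col9a1-low cells with Col10a1 at or above its limit held 13 of the 15 Matn1 UMIs, at 6.03 CPM. Without them, a step added after the data had been seen, 2 UMIs remained in 6311 cells and the log2 ratio of 13w to P0 in the Col9a1-low class was -6.82 in place of -3.96. The adult log2 ratio of the Col10a1-high to the Col9a1-low class was then 8.98 for Matn1 in place of 6.12, and 7.52 for Matn3 in place of 6.63.

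**Figure D1:**
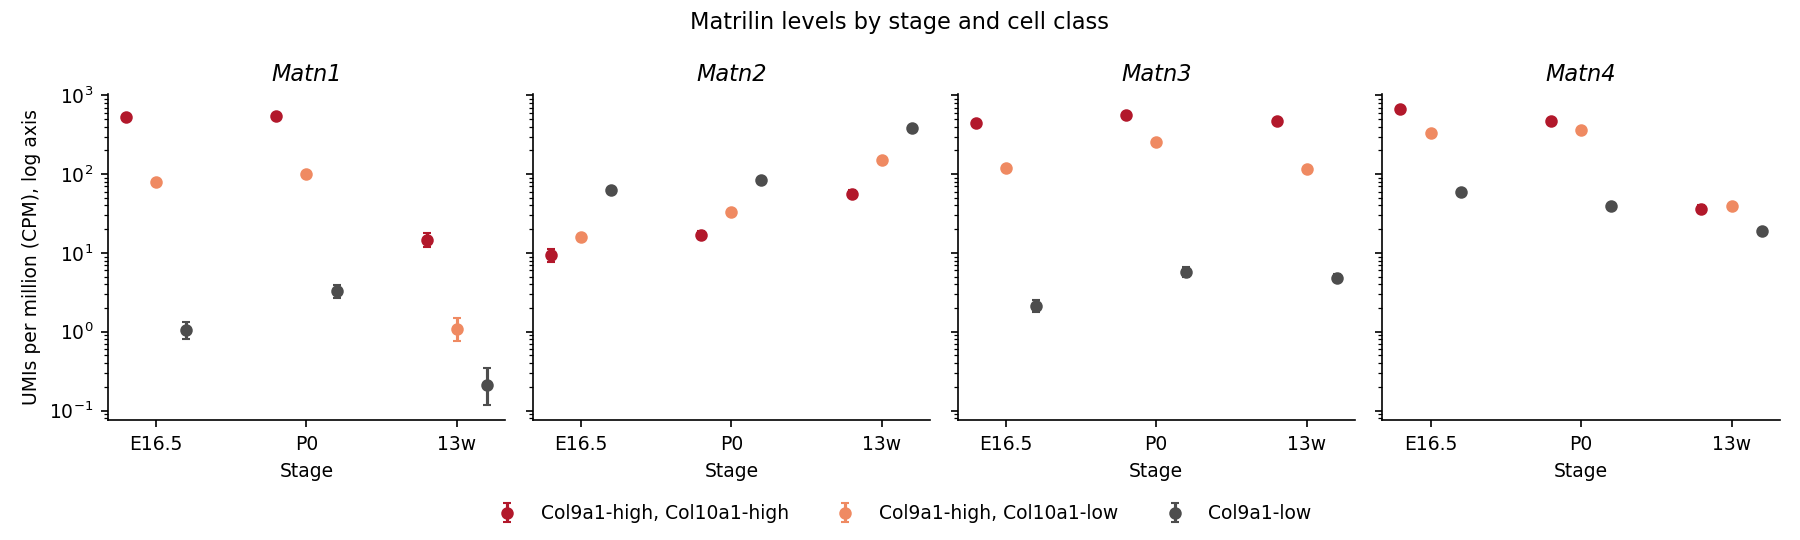
Level in CPM (log axis) of each matrilin gene by stage, in the Col9a1-high Col10a1-high (dark red), Col9a1-high Col10a1-low (orange) and Col9a1-low (grey) classes; each point is 1 library and bars are 95% counting intervals. Matn1 dropped to 14.5 CPM at most in the adult classes, Matn3 in the Col10a1-high class stayed between 441 and 560.4 CPM, Matn4 was at or below 39.7 CPM in all adult classes, and Matn2 reached 387 CPM in adult Col9a1-low cells.

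Matn3, the partner of Matn1 in mixed oligomers, was within 2-fold of its P0 level in adult Col10a1-high cells. It stood at 441 CPM at E16.5, 560.4 CPM at P0 and 479 CPM at 13w in the Col10a1-high class, at 119, 255 and 117 CPM in the Col10a1-low class, and at 2.12, 5.79 and 4.84 CPM in the Col9a1-low class. The E16.5 and 13w Col10a1-low classes had overlapping intervals (115 to 123 and 113 to 121 CPM), whereas the 3 Col10a1-high groups did not overlap one another. In the Col10a1-high class the log2 ratio of 13w to P0 was -0.23, and 0.08 or 0.11 with TMM or median-of-ratios scaling, so its sign turned with the scaling. In the Col10a1-low class Matn3 was 2.18-fold lower at 13w than at P0 (2.10 to 2.26), a call lost under both scalings (log2 ratio -0.87 and -0.86) and with limits of 30 Col10a1 or 6 Col9a1 UMIs per 10000. At P0 Matn3 was 2.14-fold higher than at E16.5 in this class (2.06 to 2.23), which the same pair of limits took below 2-fold.

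Like Matn1, Matn3 was higher in the Col9a1-high classes, and it stayed so in adults. Its level in the Col10a1-high class against the Col9a1-low class was 208-fold higher at E16.5 (175 to 249), 96.8-fold at P0 (83.5 to 113) and 98.9-fold at 13w (88.5 to 111). Against the Col10a1-low class it was 3.71-fold, 2.20-fold and 4.09-fold higher at E16.5, P0 and 13w. In the Col9a1-low class Matn3 was not above background at E16.5, with 2.12 CPM against 3.30 CPM in blood-marker cells. At 13w the class taken whole was above background, with 4.84 CPM (4.35 to 5.38) against 2.17 CPM (1.04 to 3.99). The 96 adult Col9a1-low cells with Col10a1 had 77.0 CPM of Matn3, against 2.61 CPM (2.25 to 3.02) in the other 6311. Those 6311 cells were thus not above the blood-marker background.

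Matn4 was the most abundant member before birth and was far lower in the adult cartilage classes. It stood at 668 CPM at E16.5, 469.5 CPM at P0 and 36.1 CPM at 13w in the Col10a1-high class, at 334, 366 and 39.7 CPM in the Col10a1-low class, and at 59.3, 39.5 and 19.2 CPM in the Col9a1-low class. At 13w it was 13.0-fold lower than at P0 in the Col10a1-high class (11.4 to 14.8) and 9.22-fold lower in the Col10a1-low class (8.72 to 9.75). In the Col9a1-low class it was 2.05-fold lower (1.90 to 2.22), a call lost under both scalings (log2 ratio -0.89 with median-of-ratios factors). The adult Col10a1-low, adult Col10a1-high and P0 Col9a1-low classes had overlapping intervals, so adult cartilage-class cells held no more Matn4 than Col9a1-low cells at birth.

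Matn4 separated the classes less than Matn1 and Matn3 did. Against the Col9a1-low class it was 11.3-fold higher in the Col10a1-high class at E16.5, 11.9-fold at P0, and the adult ratio was 1.88. For the Col10a1-low class the ratios were 5.63, 9.27 and 2.07 at E16.5, P0 and 13w, and the adult call was lost without cells of other lineages or without the highest doublet scores (log2 ratio 0.95 and 0.99). Between the Col10a1-high and Col10a1-low classes it was 2.00-fold higher at E16.5, a call lost in 3 of 12 alternatives, and within 2-fold at P0 (ratio 1.28) and 13w (ratio 0.909, which exceeded 1 under both scalings). In the Col9a1-low class Matn4 was above the blood-marker background at E16.5, with 59.3 CPM against 8.67 (interval 5.37 to 13.3). The 50 cells with endothelial markers held no Matn4 UMI. The 51 cells with mural markers had 50.2 CPM (37.4 to 66.0), an interval that includes the level of the class.

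Matn2, the member of loose and fibrous connective tissue, was the only member past 2-fold higher at 13w than at P0, and its level was higher in the Col9a1-low than in both Col9a1-high classes at all 3 stages. It stood at 9.32 CPM at E16.5, 17.0 CPM at P0 and 56.1 CPM at 13w in the Col10a1-high class, at 15.8, 33.0 and 151 CPM in the Col10a1-low class, and at 63.7, 83.3 and 387 CPM in the Col9a1-low class. The order Col9a1-low over Col10a1-low over Col10a1-high held at all 3 stages. At 13w it was 3.31-fold higher than at P0 in the Col10a1-high class (2.86 to 3.84), 4.57-fold higher in the Col10a1-low class (4.31 to 4.86) and 4.64-fold higher in the Col9a1-low class (4.46 to 4.83). The 56.1 CPM of the adult Col10a1-high class lay below the 77.4 CPM of adult blood-marker cells. It lay above the 21.9 CPM allowed by 25 adult endothelial-marker cells without a Matn2 UMI. These controls differ, so whether that level is above background cannot be told. The 151 and 387 CPM of the other adult classes lay above both controls. Between P0 and E16.5 it was 2.09-fold higher in the Col10a1-low class (1.87 to 2.33), a call lost as a mean over cells and with a limit of 1 Col9a1 UMI per 10000 (log2 ratio 0.79 in both).

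Against the Col9a1-low class, Matn2 in the Col10a1-high class was 6.84-fold lower at E16.5 (5.62 to 8.40), 4.92-fold lower at P0 (4.39 to 5.52) and 6.89-fold lower at 13w (6.23 to 7.64). The Col10a1-low class lay between, 4.04-fold, 2.53-fold and 2.56-fold below the Col9a1-low class. Other lineages in the Col9a1-low class differed widely in Matn2. Mural-marker cells had 69.9 CPM at E16.5 and 44.0 at P0, blood-marker cells had 3.30 CPM at E16.5, and the interval of the 350 adult blood-marker cells was 69.6 to 85.9 CPM. The 25 adult endothelial-marker cells held no Matn2 UMI, which allows up to 21.9 CPM.

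Set against all genes, all 4 members passed 2-fold between birth and adulthood over all kept cells. With the classes weighted equally Matn3 did not, at a log2 ratio of -0.45 in place of -1.83. A gene counts as called here when its ratio is at least 2 with at least 10 CPM in the higher group, and as tested when it has that level. For 13w against P0, 1 member was higher (Matn2) and 3 were lower over all kept cells, where 16.4% of tested genes were called, and likewise in the Col10a1-low class, where 19.5% were. In the Col10a1-high class 1 was higher and 2 were lower, with 23.9% of genes called, and in the Col9a1-low class, where 2 members reached 10 CPM, 1 was higher and 1 lower, with 17.5% called. The members' median log2 ratio in the Col10a1-low class was -2.16, against -0.29 for all tested genes, and over all kept cells -2.62 against -0.13. For P0 against E16.5, 2 members were higher over all kept cells (Matn1 and Matn3), with 14% of genes called, and 2 in the Col10a1-low class (Matn2 and Matn3), with 12.2% called. None passed in the Col10a1-high class, where 10.1% of genes were called, or in the Col9a1-low class, where 12.7% were and 2 members reached 10 CPM. Both stage comparisons use the P0 library. TMM scaling moved all log2 ratios by 0.31 in the Col10a1-high class and 0.25 in the Col10a1-low class for 13w against P0, and by at most 0.18 for P0 against E16.5.

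Against the Col9a1-low class, the called members kept their direction in each library. In the Col10a1-high against the Col9a1-low class, 3 members were higher and 1 lower (Matn2) at E16.5 and P0, where 39.9% and 31.2% of tested genes were called. At 13w 2 were higher and 1 lower, with 27.1% called. In the Col10a1-low against the Col9a1-low class the counts were the same at each stage, with 21.1%, 23.6% and 13.5% of genes called at E16.5, P0 and 13w, though at 13w the 2 higher were Matn3 and Matn4 in place of Matn1 and Matn3. Between the Col10a1-high and Col10a1-low classes 3 members were higher at E16.5, where 20.6% of genes were called, 2 at P0, where 9.05% were, and at 13w 2 were higher and 1 lower, where 6.39% were. Median-of-ratios scaling moved these ratios by up to 0.50 (log2), in the adult Col10a1-high against the Col9a1-low class.

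Over all kept cells, Matn4 gave the most matrilin transcripts at E16.5 and P0, and Matn2 at 13w. Since 3′ counting reads an end of each transcript, UMIs of the 4 genes were compared without scaling by length. At E16.5, Matn1, Matn2, Matn3 and Matn4 made up 19.8%, 10.9%, 20.1% and 49.2% of matrilin UMIs over all kept cells. At P0 the shares were 22.6%, 6.32%, 32.7% and 38.4%, and at 13w 0.340%, 75.6%, 17.3% and 6.79%. Within classes the leading gene differed. At E16.5 Matn4 held 40.4% in the Col10a1-high and 60.9% in the Col10a1-low class, and Matn2 held 50.5% in the Col9a1-low class. At P0 Matn3 held 35.2% and Matn1 34.2% in the Col10a1-high class, Matn4 held 48.5% in the Col10a1-low class and Matn2 63.2% in the Col9a1-low class. In adults, Matn3 held 81.8% of matrilin UMIs in the Col10a1-high class, Matn2 held 48.9% and Matn3 37.9% in the Col10a1-low class, and Matn2 held 94.1% in the Col9a1-low class. The Col10a1-high class gave 72.6% of all Matn1 UMIs at E16.5 from 5.46% of cells, 71.7% at P0 from 13.9% of cells and 65.3% at 13w from 2.33% of cells.

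**Figure D2:**
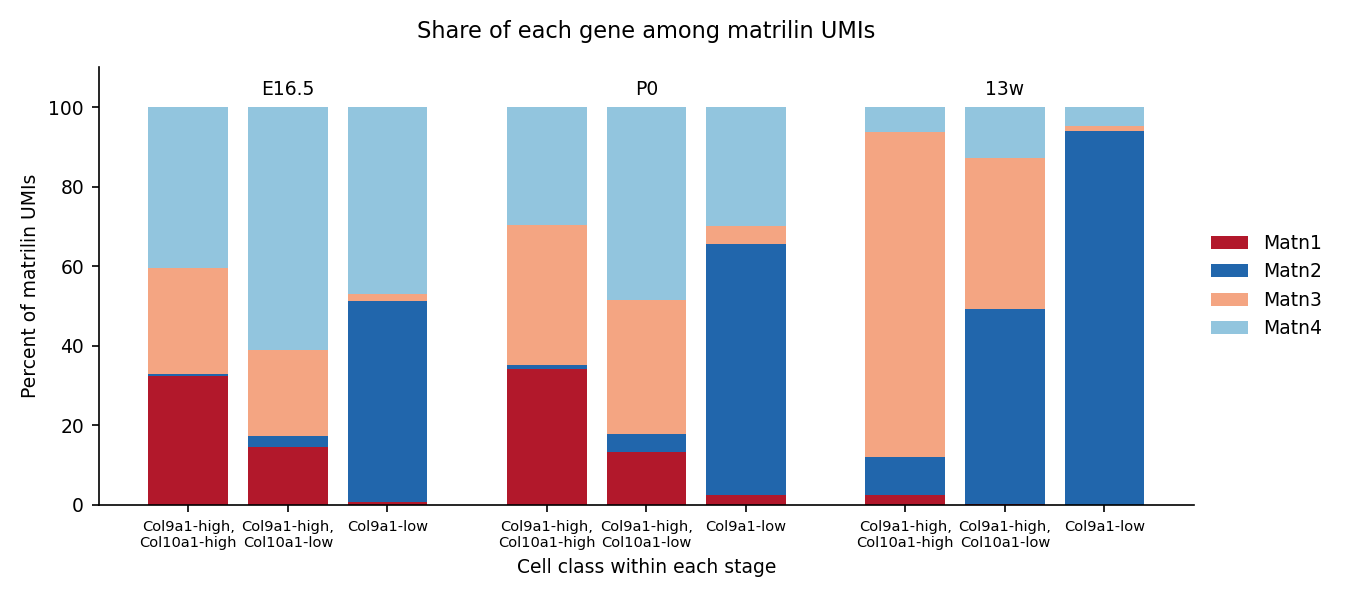
Percent of matrilin UMIs from Matn1 (dark red), Matn2 (dark blue), Matn3 (salmon) and Matn4 (light blue) in each cell class, grouped by stage; each bar sums the UMIs of 1 class in 1 library. Adult bars differ most by class, with Matn3 at 81.8% in the Col10a1-high class and Matn2 at 94.1% in the Col9a1-low class.

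Along the Col10a1 level of Col9a1-high cells, the members formed different slopes. Matn1 at E16.5 went through 13.2, 55.7, 271, 475 and 874 CPM in cells with 0, above 0 to below 1, 1 to below 10, 10 to below 100 and at least 100 Col10a1 UMIs per 10000. At P0 the same bins had 45.2, 63.8, 192, 423 and 907 CPM, and at 13w 0.495, 0.439, 4.41, 15.2 and 9.63 CPM, the last from 24 cells. Matn1 was thus highest in the cells with the most Col10a1 before and at birth, and part of its level in the Col10a1-low class came from cells with some Col10a1.

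Matn3 had a shallower slope, from 54.9 to 625 CPM between the outer bins at E16.5, from 163 to 584 at P0 and from 86.9 to 444 at 13w, where the bin of 10 to below 100 held 484 CPM. Matn4 climbed from 241 to 640 CPM at E16.5, was highest in the bin of 10 to below 100 at P0 (494 CPM) and lay between 27.7 and 44.9 CPM in all adult bins. Matn2 ran the other way at P0, from 40.8 CPM without Col10a1 to 9.99 in the top bin, and at 13w, from 161 to 31.3 CPM. Its E16.5 values were between 8.63 and 20.0 CPM.

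**Figure D3:**
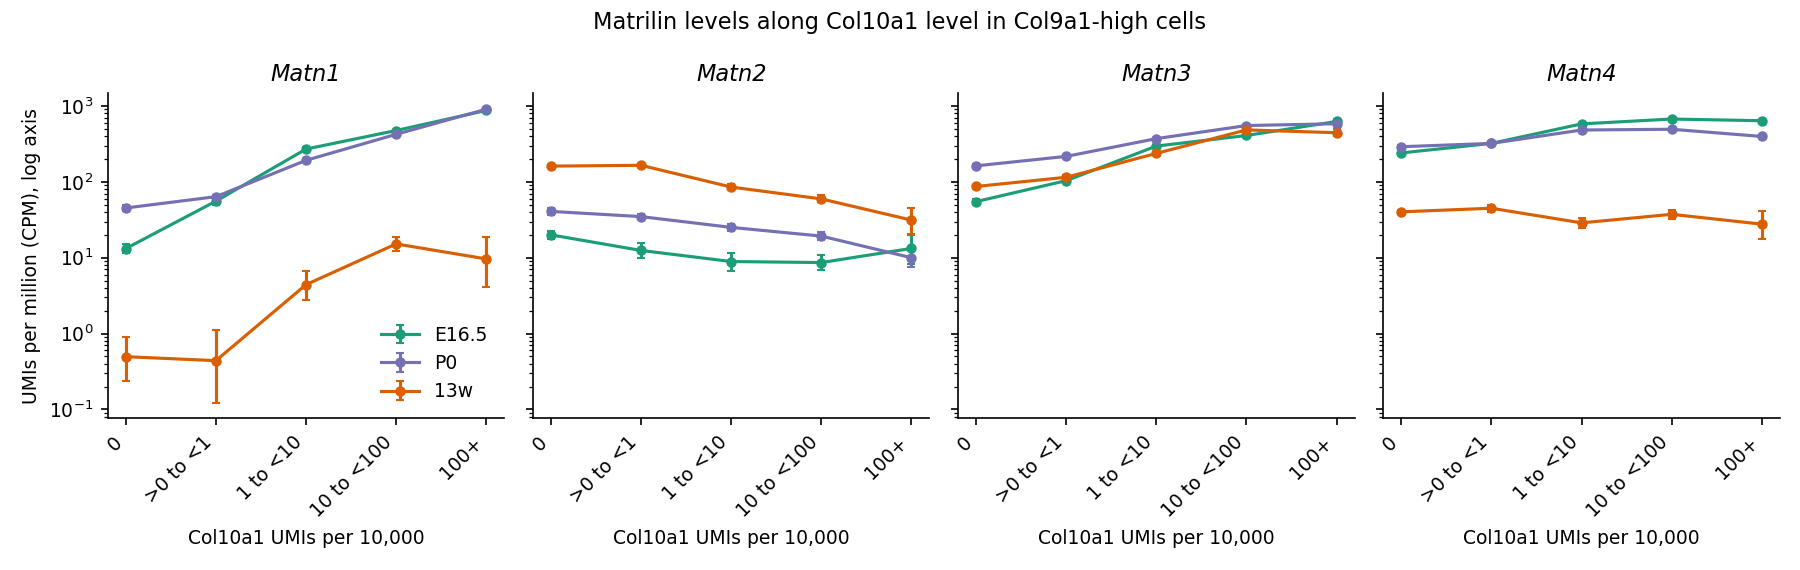
Level in CPM (log axis) of each matrilin gene in Col9a1-high cells binned by Col10a1 UMIs per 10000, at E16.5 (green), P0 (purple) and 13w (orange); points are 1 library each and bars are 95% counting intervals. Matn1 reaches 874 and 907 CPM in the top bin at E16.5 and P0, and at most 15.2 CPM in any adult bin, while adult Matn3 reaches 484 CPM.

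The Col9a1 limit itself lay beside a step in Matn1 before and at birth. Cells just outside it (1 to below 3 Col9a1 UMIs per 10000), just inside it (3 to below 6) and well inside it (6 or more) had 0.717, 3.04 and 264 CPM of Matn1 at E16.5, and 3.05, 3.41 and 259 CPM at P0. For Matn3 the bins had 3.51, 23.4 and 260.3 CPM at E16.5, 8.07, 29.5 and 373 at P0, and 18.3, 53.2 and 211 at 13w. Before and at birth, cells just inside the limit thus held little of either gene. Matn2 passed through the limit more gradually, with 324, 226 and 109.7 CPM in these bins at 13w, and Matn4 had 79.6, 134 and 507 CPM at E16.5.

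How many cells carried each transcript was compared with every cell thinned to 3000 UMIs, since depth differed between classes. Matn1 was seen in 65.4%, 65.3% and 2.17% of Col10a1-high cells at E16.5, P0 and 13w, and Matn3 in 73.2%, 72.7% and 56.0%. Of Col10a1-low cells, Matn1 was seen in 11.0%, 17.3% and 0.507% and Matn3 in 23.5%, 42.5% and 17.5%. Matn4 was seen in 85.8%, 73.1% and 7.07% of Col10a1-high cells. Matn2 was seen in 17.0%, 18.9% and 60.3% of Col9a1-low cells.

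Blood-marker cells, which should lack cartilage matrilins, give the background of these shares. At E16.5, 140 thinned blood-marker cells (before thinning the median was 14937 UMIs in the Col9a1-low class and 10818 in blood-marker cells) had Matn1 in 1.43%, Matn3 in none, Matn4 in 3.57% and Matn2 in 0.714%. The Col9a1-low share for Matn1 at E16.5, 0.382% (0.204% to 0.653%), was not above that background, which rests on 2 cells (0.173% to 5.07%). For Matn4 the Col9a1-low share of 12.8% was above it. At 13w, 317 thinned blood-marker cells had Matn2 in 10.1%, Matn3 in 0.631%, Matn4 in 1.26% and Matn1 in 0, which allows up to 0.946%. Without thinning, Matn1 was seen in 1.78% and 4.35% of Col9a1-low cells at E16.5 and P0, and in 0.156% at 13w.

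**Figure D4:**
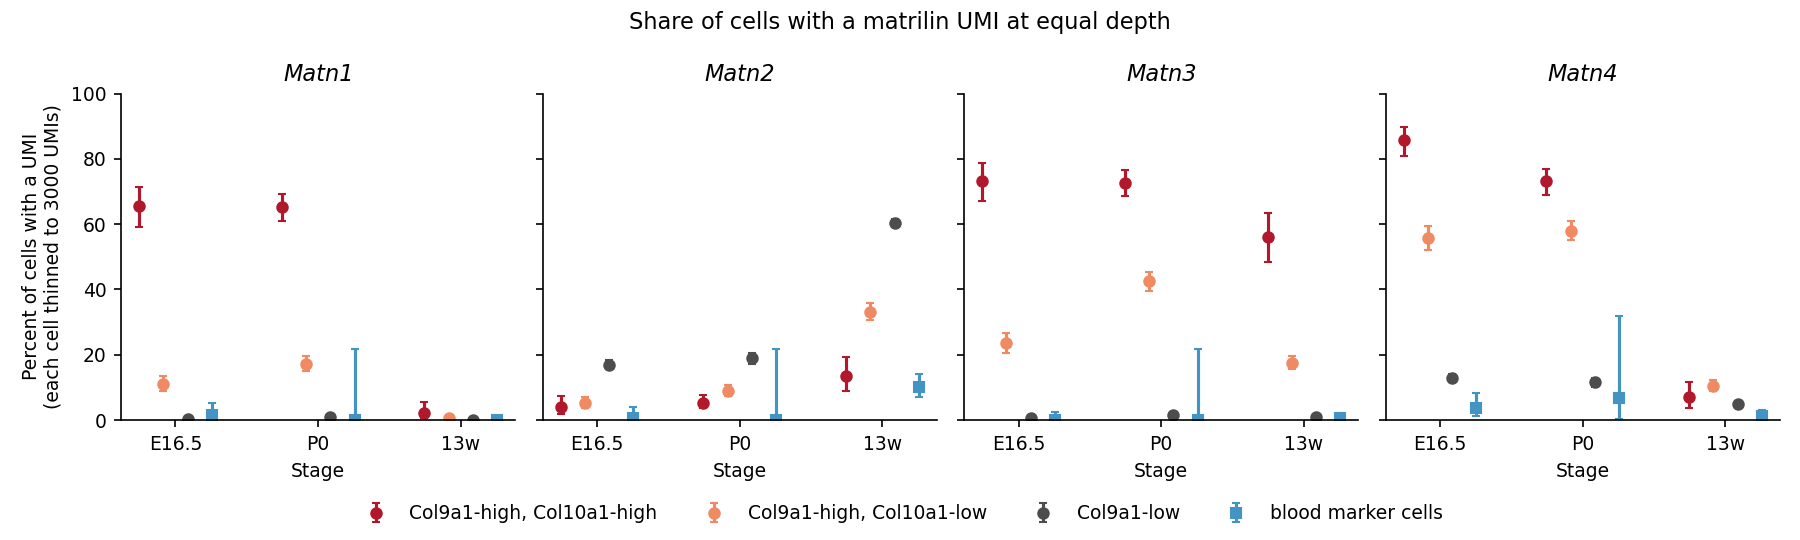
Percent of cells with a UMI of each matrilin gene after thinning every cell to 3000 UMIs, by stage, for the Col9a1-high Col10a1-high (dark red), Col9a1-high Col10a1-low (orange) and Col9a1-low (grey) classes and for blood-marker cells (blue squares); bars are exact 95% binomial intervals. Adult Col10a1-high cells show 56.0% with Matn3 beside 2.17% with Matn1, and adult Col9a1-low cells 60.3% with Matn2; the P0 blood value rests on 15 cells.

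Because matrilin-1 and matrilin-3 can share an oligomer, cells with both transcripts were counted at equal depth. Matn1 and Matn3 were seen together in 50% of Col10a1-high cells at E16.5 and 49.0% at P0. In the Col10a1-low class at E16.5, 52.4% of cells with Matn1 also had Matn3 (41.1% to 63.6%), against 19.9% of cells without Matn1 (16.9% to 23.2%). At P0 these shares were 64.6% (57.5% to 71.3%) and 37.8% (34.7% to 41.0%). In the Col10a1-high class the same shares were 76.4% and 67.1% at E16.5, and 75% and 68.3% at P0, with overlapping intervals. The overlap in the Col10a1-low class was not particular to this pair. At E16.5, 79.3% of its cells with Matn1 also had Matn4, against 52.9% of those without Matn1. At P0 these shares were 74.7% and 54.4%. Whether either overlap goes beyond the rise of these genes with Col10a1 inside the class was not tested.

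Matn4 accompanied Matn3 in the Col10a1-low class at E16.5, in 77.7% of cells with Matn3 against 49.1% of cells without, and at P0, in 68.1% against 50.5%. At 13w it was in 5.37% of Col10a1-low cells with Matn3 and 11.5% of those without. Matn3 was in 10.0% of adult Col10a1-low cells with Matn2 and 21.3% of those without. Few cells held UMIs of all 4 members: 4 of 246 Col10a1-high cells at E16.5, 13 of 527 at P0 and 0 of 184 at 13w, which allows up to 1.63%.

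Levels were uneven among cells of a class. The 10% of Col10a1-low cells with the most Matn1 UMIs held 76.6% of them at E16.5 and 68.5% at P0, and the corresponding 10% for Matn3 held 69.0% at 13w. In the Col10a1-high class at E16.5 the most even gene was Matn4, whose top 10% of cells held 18.0% and whose median cell had 6.61 UMIs per 10000.

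Outside the cartilage classes, Matn2 and Matn4 were followed in Col9a1-low cells without markers of other lineages, divided at 3 UMIs per 10000 of a marker gene. These groups overlap. At E16.5 Matn2 was higher in cells with Dpt, a fibroblast matrix gene (199 against 62.5 CPM), and in cells with Sfrp2, a secreted Wnt modulator (133 against 50.6 CPM). Matn4 was lower in the Sfrp2 cells, at 23.4 against 72.8 CPM, and in cells with Fbn2, a fibrillin of developing tissue, at 32.8 against 75.1 CPM. Cells with Pthlh, the hormone-like signal of perichondrial and early cartilage cells, also had less Matn4, at 16.7 against 64.3 CPM at E16.5 and 11.0 against 41.8 CPM at P0.

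In adults both genes were arranged differently. Matn2 was at 504 CPM in cells with Cilp2, a joint surface matrix gene, against 383 CPM in cells without, and at 467 against 362 CPM for Dpt. It was lower in cells with Prg4, the lubricin gene (191 against 414 CPM), and with the osteoblast-lineage gene Ifitm5 (161 against 415 CPM). Adult Matn4 was at 140.4 CPM in 82 cells with Crabp1, a retinoic acid binding protein, against 19.5 CPM in the rest, and at 55.1 against 19.8 CPM for Sfrp2. The Sfrp2 cells thus had less Matn4 than the rest at E16.5 and more at 13w, a change whose difference was not tested. Cycling cells, with a UMI of Mki67 or Top2a, had 404 CPM of Matn2 at 13w, against 411 CPM in the rest.

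**Figure D5:**
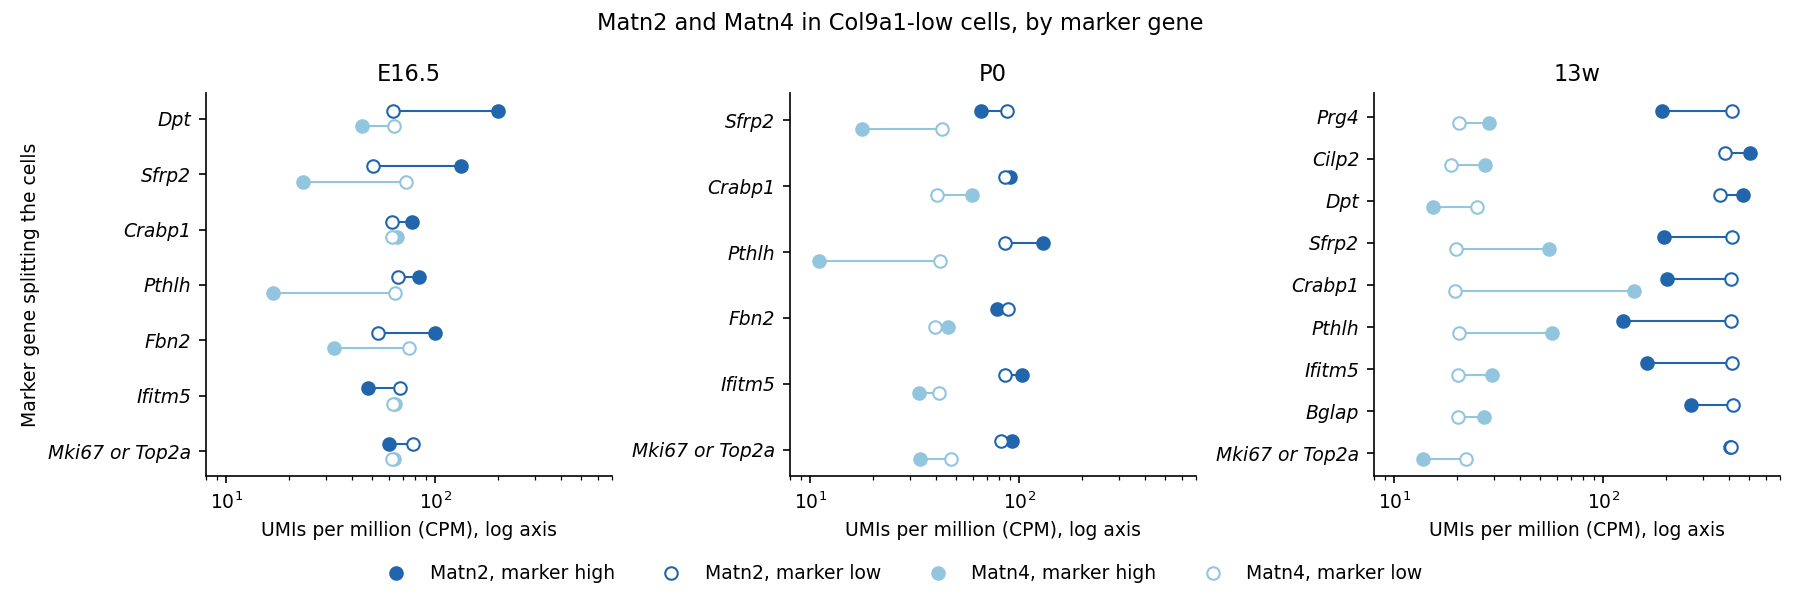
Level in CPM (log axis) of Matn2 (dark blue) and Matn4 (light blue) in Col9a1-low cells without other lineages, with filled circles for cells at or above the limit of the marker named on the vertical axis and open circles for cells below it, in 1 library per stage. At E16.5 the Dpt-high cells reach 199 CPM of Matn2, and at 13w the Crabp1-high cells reach 140.4 CPM of Matn4.

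Among Col9a1-high cells the members also differed by the same markers, a division added after the data had been seen. It pools the Col10a1-high and Col10a1-low classes, between which these markers differ. Ifitm5 stood at 120 and 314 CPM in these classes at E16.5, and Cilp2 at 23.1 and 60.6 CPM at 13w. Whether the differences below go beyond the Col10a1 division was not tested. Adult cells with Cilp2 had more Matn2 (319 against 128 CPM) and less Matn3 (40.8 against 182 CPM). At E16.5, cells with Ifitm5 had 95.5 CPM of Matn1 against 264 in the rest, and at P0 152 against 279.8 CPM. Cycling Col9a1-high cells at E16.5 had 111 CPM of Matn1 against 282 CPM in the rest, and 143 against 261 CPM of Matn3. At P0 these values were 216 against 259 CPM for Matn1 and 319.9 against 371 CPM for Matn3.

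Known binding partners of matrilins moved in both directions between birth and adulthood. In the Col10a1-low class at 13w against P0, 6 of 12 partner genes were higher and 1 lower, where 19.5% of all tested genes were called, with a median log2 ratio of 0.95 against -0.29 for all genes. For the Col10a1-high class the counts were 5 higher and 3 lower (median 0.36, against -0.42 for all genes), and over all kept cells also 5 and 3 (median -0.08, against -0.13). The pentameric adaptor gene Comp stood at 9783 CPM at 13w, against 902 at P0 (10.9-fold), the small proteoglycan gene Dcn at 1577 against 142 CPM (11.1-fold) and Bgn at 4743 against 594 CPM (7.98-fold). Col2a1, of the main cartilage collagen, was 2.73-fold higher, Fn1 4.05-fold and Col1a1 3.32-fold. The basement membrane linker gene Nid1 was 3.75-fold lower, at 6.92 against 25.9 CPM. Acan stood at 2109 against 2680.0 CPM, within 2-fold. Col9a1 is also among the 12 and enters these counts and medians, although its level defines the classes. No value of its own is given for that reason. For P0 against E16.5 in the same class, 7 of 12 partners were higher and none lower, with a median of 1.16 against -0.09.

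Transcription factors and proteases tied to matrilins showed few calls. None of Sox5, Sox6 and Sox9, which drive cartilage genes, passed 2-fold for 13w against P0 in the Col10a1-low class, with Sox9 at 803 against 577 CPM. For P0 against E16.5, Sox5 was 2.17-fold lower (86.6 against 188 CPM). Among the ADAMTS proteases known to cleave matrilins, Adamts5 was 4.86-fold higher at P0 than at E16.5 (49.9 against 10.3 CPM) and 2.16-fold higher at 13w than at P0 (108 against 49.9 CPM). Adamts1 was within 2-fold in both comparisons, and Adamts4 was below the 10 CPM minimum in this class. Against the Col9a1-low class, 2 of 3 SOX genes were higher in the Col10a1-low class at E16.5 and P0, and 0 at 13w. There 21.1%, 23.6% and 13.5% of tested genes were called. In the Col10a1-high class 1, 2 and 0 SOX genes were higher at these stages. Proteases were lower there in 1 of 2 tested at E16.5, and in 2 of 3 at P0 and 13w. In that comparison 39.9%, 31.2% and 27.1% of genes were called.

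The genes whose levels ran closest to each member over the 9 groups of stage and class were found by Pearson's r of log2(CPM + 1), over 4172 genes with at least 50 CPM in some group. The groups share 3 libraries and are not independent, and r ignores the size of a change. Cnmd, the chondromodulin gene of avascular cartilage, was nearest to Matn3 (r = 0.994), with Orai1, Ncmap, Col11a1 and Shisa4 after it (0.981 to 0.988). Nearest to Matn4 was Csgalnact1, a chondroitin sulfate enzyme (0.991), followed by Supt5, Rxylt1, Fabp3 and Araf (0.984 to 0.989). For Matn1 they were Ubxn4, Arpc4, Fabp3, Tpcn1 and the Wnt antagonist gene Frzb (0.972 to 0.978), and for Matn2 Snx9, Chd9, Ggh, Zeb1 and Rnf13 (0.966 to 0.975). Ubxn4 spanned only 156 to 333 CPM, whereas Frzb spanned 5.97 to 318 CPM, so likeness of order does not mean likeness of range. Among members, r was 0.938 for Matn1 and Matn4, 0.784 for Matn1 and Matn3, 0.636 for Matn3 and Matn4, -0.642 for Matn2 and Matn3, -0.912 for Matn1 and Matn2, and -0.919 for Matn2 and Matn4.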

How the data were processed

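Cell Ranger 6.1.2 made the deposited raw UMI counts, per the file headers; per the submitters' processing notes the build is GRCm39. The counts were made by the authors without normalization. Kept cells had 500 or more genes and no more than 10% mitochondrial UMIs; the mitochondrial limit removed 15.4% (E16.5), 16.5% (P0) and 9.21% (13w) of barcodes. Scrublet's automatic threshold (scanpy 1.11.5) called 5, 1 and 0 cells and was taken not to have worked, so no doublets were removed in the main values.

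Counts were summed per library and class and divided by the group's total (CPM). Exact 95% intervals (Poisson for levels, binomial given the sum for ratios, Clopper-Pearson for percentages of cells) leave out variation between animals. A level against 0 counts used a floor of 3 counts. Upper limits given for 0 cells with a UMI are 3 over the cells counted, not the ends of exact intervals. Scripts were tested on simulated data. Alternatives used edgeR 4.0.16 (TMM), DESeq2 1.42.0 (size factors), other cell filters and other class limits. Named genes are the 4 members, the 18 partner, SOX and protease genes where past 2-fold or as class markers, with Acan, Sox9, Adamts1 and Adamts4 also named after their values were seen, and the 5 genes nearest to each member by r. The members and lists were chosen with earlier results of these data known. Other lineages needed UMIs of at least 3 listed markers; 1 listed marker was not among the features. The upstream sequences come from RefSeq (GRCm38.p6).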

Additional observations from a re-analysis of the deposited data

Results flagged for a closer look

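Matn4 was the member whose P0 to E16.5 ratio took opposite signs in different classes. The log2 ratio of P0 to E16.5 was 0.13 in the Col10a1-low class (366 against 334 CPM), -0.51 in the Col10a1-high class (469.5 against 668 CPM) and -0.59 in the Col9a1-low class (39.5 against 59.3 CPM). No ratio reached 2-fold, each class is 1 library per stage, and the difference between the classes was not tested. With a limit of 6 Col9a1 UMIs per 10000 the ratio in the Col10a1-low class was -0.08, so the opposite sign there rests on the limit used.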

How the results depend on the processing

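Of 203 recomputed counts of members past 2-fold, 193 kept the same number or stayed within 1.5 times of it, and of 572 recomputed values of the 47 called ratios, 553 kept their call. None of these 572 values took the opposite sign. Among ratios not called some did, such as adult Matn4 between the Col10a1-high and Col10a1-low classes, in 2 alternatives. For P0 against E16.5 over all kept cells, the 2 members past 2-fold were 1 without a mitochondrial limit and 0 with equal weight per class, where the log2 ratio of Matn1 was 0.08 and that of Matn3 0.55. In the Col10a1-low class the 2 were 1 as a mean over cells, with a limit of 30 Col10a1 UMIs per 10000, and with limits of 1 or 6 Col9a1 UMIs per 10000. In the Col10a1-high class the 0 was 1 with a limit of 3 Col10a1 UMIs per 10000, and in the Col9a1-low class the 0 was 2 with no minimum level. For 13w against P0 in the Col9a1-low class, the 2 were 1 with TMM and 1 with median-of-ratios scaling. The cause of these moves was not tested, except that the minimum level removes genes by construction. No paired analysis was possible because each stage has a single library. Leaving out adult Col9a1-low cells with Col10a1, a step added after the data had been seen, moved the adult Matn1 log2 ratio of the Col10a1-high to the Col9a1-low class to 8.98, against 6.12. The adult library holds 150 Matn1 UMIs, and no interval covers variation between animals or libraries.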
